A study of Mus musculus with 4 samples.

Results

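Capicua, the product of Cic, and the ataxin-1 family partners encoded by Atxn1 and Atxn1l were taken by gene name from a table of RNA-seq values in newborn mouse brain. The 3 genes each had 1 row among 20793 rows. Brains were collected at postnatal day 1 and gave 4 libraries, 2 wild-type (WT) and 2 CIC knockout (CIC KO), each group lettered A and B. For the knockout, the genotype field gives Nes-Cre together with CIClox/lox, that is, Cre recombinase under Nestin regulatory sequence acting on a floxed Cic gene. For the WT libraries that field gives Nes-Cre with CIC+/+, whereas their sample titles are those of Cre-negative animals on the floxed background, and the labels do not settle which is right. The labels do not give the strain, the sex, the exons between the loxP sites and the number of animals behind a library, so p-values measure the spread between these libraries, which may be technical. Nestin-driven Cre acts in neural progenitors and their descendants, and cells of blood vessels, microglia, meninges and blood in the same brain arise outside that lineage.

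CIC is an HMG-box repressor that binds an octamer near its target genes and holds them off until receptor tyrosine kinase and ERK signalling inactivates it. In brain it sits in a complex with ataxin-1 and ataxin-1-like, paralogues that share the AXH domain through which they contact CIC. Without both partners the CIC protein is unstable, and the polyglutamine-expanded form of ataxin-1 that causes spinocerebellar ataxia type 1 acts in large part through this complex. CIC is made in a short and a long form from separate start sites, and the long form has an extra N-terminal part. Cic thus checks the genotype labels, and the partners show whether the RNA of the proteins that stabilise CIC differed as well.

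The span of the Cic row is that of the short form. In the deposited coordinates (mm9) it runs from 26067198 to 26079167 on chromosome 7, a span of 11970 bases. The short-form model Cic-201 of GENCODE M21 (GRCm38), with 20 exons, has the same span of 11970 bases. The long-form model Cic-212, with 21 exons, spans 26456 bases. Of its 8221 transcript bases, 2852 (34.7%) lie in the 2 exons before the short form's start and so, if the models correspond across builds, outside the deposited row, while the other exons of the long form lie inside it. Long-form RNA can therefore add to the row through the shared exons, and the forms cannot be told apart here. The start sites lie 14480 bases apart in RefSeq. Their sequences are shown because the model whose span equals that of the deposited row has 0 exon bases before the second of these starts. Each holds 250 bases before the start in lower case and the first 50 transcribed bases in capitals (RefSeq, GRCm38.p6, plus strand).
Cic long-form start, chr7:25267449-25267748: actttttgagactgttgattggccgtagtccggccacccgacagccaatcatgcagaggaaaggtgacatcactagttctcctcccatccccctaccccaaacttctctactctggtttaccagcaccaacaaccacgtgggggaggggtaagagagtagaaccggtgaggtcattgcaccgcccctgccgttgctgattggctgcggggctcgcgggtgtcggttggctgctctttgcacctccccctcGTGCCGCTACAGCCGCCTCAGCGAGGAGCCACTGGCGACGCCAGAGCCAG
Cic short-form start, chr7:25281929-25282228: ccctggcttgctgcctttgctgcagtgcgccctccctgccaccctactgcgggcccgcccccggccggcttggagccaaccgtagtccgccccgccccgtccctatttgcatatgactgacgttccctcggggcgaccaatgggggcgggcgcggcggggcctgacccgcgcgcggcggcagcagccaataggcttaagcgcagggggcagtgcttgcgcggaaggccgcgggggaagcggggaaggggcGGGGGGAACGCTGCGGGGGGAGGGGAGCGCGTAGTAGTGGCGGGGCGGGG
The short-form start was the richer in G and C, at 74.3% against 60.3%, with 34 CpG dinucleotides against 17. The CIC octamer was searched in these windows and in that of Atxn1l on both strands, as TGAATGAA, TGAATGGA, TCAATGAA or TCAATGGA. None of the 3 windows held one of these forms. Of the 32851 RefSeq promoter windows of the same length that were searched, with 1 chromosome left out, 3.84% held at least 1. No window of Atxn1 was available.

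The partner rows, by contrast, cover their genes nearly whole. Atxn1 (mm9, chromosome 13, 45645125 to 46060360) spans 415236 bases, against 415237 for the RefSeq gene in GRCm38. Atxn1l (mm9, chromosome 8, 112250351 to 112261639) spans 11289 bases, the same as the GENCODE model Atxn1l-201. The members share few sequences with other genes. In GENCODE M21 transcripts, 0 of the 50-base words of Cic or Atxn1l occurred in a transcript of another gene. Of the 14005 words of Atxn1, 328 (2.34%) did, all in transcripts of the adjacent gene Gmpr and none in Atxn1l. No label gives the read length.

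The libraries were not equally alike. Over the 12703 rows with a mean of 1 FPKM or more (fragments scaled by transcript length and by the library's mapped fragments), the median absolute log2 difference was 0.07 between the WT libraries and 0.10 to 0.11 between CIC KO A and either of them. CIC KO B stood apart, at 0.19 to 0.22 from the other 3. Column sums lay between 440005 and 449559 FPKM, and read depth is unknown because no counts are given. The brain label matched the neural marker list. All 8 of its genes were measured, and they summed to 3509 and 3452 FPKM in WT and to 3393 and 2903 FPKM in CIC KO A and B. Sums of regional markers moved with the groups. Cortical excitatory neuron markers (8 of 8 measured) summed to 651 and 682 FPKM in WT, 467 in CIC KO A and 288 in CIC KO B. Markers of thalamus, midbrain and cerebellum (8 of 8 measured) summed to 41.8 and 46.2 FPKM in WT, 82.4 in CIC KO A and 237 in CIC KO B. Of these, En2 was listed at 0 in CIC KO A and was also low in WT (0.0138 and 0.115 FPKM), against 5.27 FPKM in CIC KO B. Barhl1 likewise had 0.0114 and 0.524 FPKM in WT and 0.0835 FPKM in CIC KO A, against 11.4 FPKM in CIC KO B. Most of the CIC KO A sum came from Zic1 (28.6 FPKM, against 9.51 and 13.0 in WT) and Zic2 (21.9 FPKM, against 11.9 and 12.1 in WT). Slc17a6, next in level there, had 16.6 FPKM, against 15.2 and 14.5 FPKM in WT. Choroid plexus markers (8 of 8 in the table) summed to 152 and 493 FPKM in WT and to 981 and 1052 FPKM in CIC KO. Ttr made up most of each sum, at 144 and 475 FPKM in WT and 951 and 1005 FPKM in CIC KO. Of the 7 choroid plexus markers that were tested, all 7 were higher in both knockout libraries, against 27.1% of all tested rows. In limma all 7 had an unadjusted p under 0.05, against 6.61% of all tested rows that were higher at that level. Limma called 0 of them, against 0.0236% of all tested rows called higher. The marker left out by the filter, Kl, had 0.515 and 0.612 FPKM in WT and 0.648 and 0.549 FPKM in CIC KO. Slc4a5 had 0.277 and 0.949 FPKM in WT and passed the filter only through its knockout values (1.84 and 2.64 FPKM). The counts for the tested markers thus depend in part on the filter.

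Each knockout library had less Cic RNA than either WT library, and neither had lost it. The WT libraries had 51.3 (A) and 56.4 (B) FPKM, and the knockout libraries 19.1 (A) and 22.2 (B) FPKM. Both knockout values lay far below both WT values, and the groups did not overlap. The means were 53.8 ± 3.57 FPKM in WT and 20.7 ± 2.24 FPKM in CIC KO (SD, n = 2 each). Relative to the WT mean, 35.4% of the Cic signal remained in CIC KO A and 41.3% in CIC KO B. Across the pairings of a knockout with a WT library the share ran from 33.8% to 43.3%. On the log2(FPKM + 1) scale, on which low genes show less than their true change, the difference was -1.34 ± 0.12 (SE), with a 95% confidence interval from -1.66 to -1.03. On that scale the interval corresponds to 31.6% to 49.1% of WT. Limma's adjusted p over all rows was 0.213 (unadjusted p = 0.000162), so Cic did not pass the threshold of 0.05. In that comparison 0.0236% of rows were called lower and 0.0236% higher, and for 21.7% of rows both knockout libraries lay below both WT libraries, as for Cic, and for 27.1% above. At an unadjusted p under 0.05, as Cic had, 3.54% of rows were lower and 6.61% higher.

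**Figure D1:**
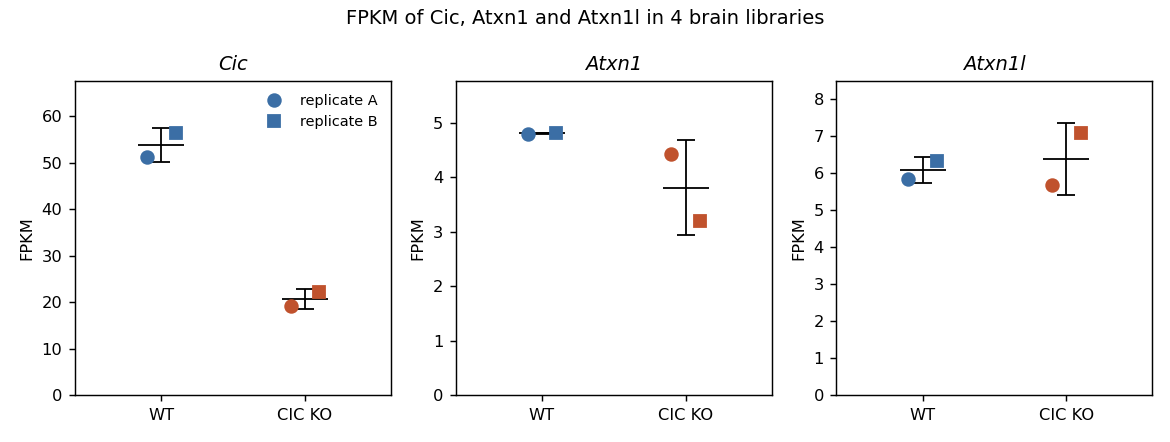
FPKM (y axis, starting at 0 and scaled to each gene) of Cic, Atxn1 and Atxn1l in WT and CIC KO brain; circles are replicate A, squares replicate B, and the black lines the mean and SD of 2 libraries. Both Cic knockout values (19.1 and 22.2) lie well below the WT values (51.3 and 56.4), whereas the Atxn1l groups overlap.

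The size of the Cic difference placed it among the most extreme rows. Of 12703 tested rows, 14 had a lower log2 difference than Cic, and 62 (0.488%, Cic included) had one at least as large in either direction. Among rows with no listed 0 in any library Cic had the 5th-lowest difference. By unadjusted p it ranked 9th. In WT brain Cic was expressed above 87.5% of tested rows, and in CIC KO brain it was still above 65.6% of them. The call depended on which library was left out. Limma's adjusted p was 0.0254 without CIC KO B and 0.00486 without CIC KO A, fits in which the lone knockout library is assumed to vary like the WT pair. It was 0.733 without WT A and 0.665 without WT B. The fit without CIC KO B called 0.0866% of all rows lower and 0.126% higher, and the fit without CIC KO A 16% and 17.9%. In these 4 fits the log2 difference itself stayed between -1.45 and -1.24.

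In brain tissue, fewer cells of a type and less RNA per cell cannot be told apart. Any Cic RNA of cells outside the Nestin lineage would be counted in the Cic row. Markers of those cells were present in every library. Microglial and macrophage markers (10 of 10 in the table) summed to 78.7 and 92.5 FPKM in WT and 102 and 171 FPKM in CIC KO. Endothelial markers (8 of 8) summed to 96.1 and 117 FPKM in WT and 120 and 106 FPKM in CIC KO. Meningeal and fibroblast markers (8 of 8) summed to 138 and 196 FPKM in WT and 233 and 227 FPKM in CIC KO. Igf2 was the largest part of each of these meningeal sums, at 63.2 and 92.2 FPKM in WT and 113.9 and 92.4 FPKM in CIC KO. Pdgfra in this list is not confined to cells outside the Nestin lineage. Blood markers (7 of 7, on 9 rows) summed to 287 and 188 FPKM in WT and 99.8 and 1198 FPKM in CIC KO, with the alpha-globin genes Hba-a1 and Hba-a2 listed at 0 in CIC KO A. Of these sums, the microglial and blood ones were higher in CIC KO B, which had the higher Cic value, and the endothelial and meningeal ones were higher in CIC KO A. The part of these cells in the remaining Cic RNA was not tested. The labels do not say which exons were deleted. Any RNA of the recombined gene that keeps exons of the Cic row would also be counted in it, and its part was not tested either.

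Atxn1 encodes ataxin-1, the partner whose polyglutamine expansion causes spinocerebellar ataxia type 1. Its row had 4.802 and 4.808 FPKM in WT A and B, 4.44 FPKM in CIC KO A and 3.19 FPKM in CIC KO B. The WT libraries were nearly equal, and both knockout libraries lay below them, CIC KO B by more. The means were 4.80 ± 0.00386 FPKM in WT and 3.81 ± 0.882 FPKM in CIC KO (SD, n = 2 each). The log2 difference was -0.28 ± 0.15 (SE; 95% confidence interval -0.68 to 0.12), with limma's adjusted p of 0.548, so Atxn1 was not called. In either direction, 20.6% of tested rows had a difference at least as large. CIC KO B carried most of it, at 66.4% of the WT mean against 92.3% for CIC KO A. Without CIC KO B the log2 difference was -0.09 (limma's adjusted p = 0.542). Without CIC KO A it was -0.47 and passed the test (adjusted p = 0.0138), in the fit that called 16% of all rows lower.

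Atxn1l encodes ataxin-1-like, also known as BOAT, which binds CIC as ataxin-1 does and lacks the polyglutamine tract of human ataxin-1. Its row had 5.83 FPKM in WT A, 6.33 in WT B, 5.68 in CIC KO A and 7.07 in CIC KO B. The knockout libraries lay on either side of the WT pair, so the groups overlapped. The means were 6.08 ± 0.353 FPKM in WT and 6.38 ± 0.984 FPKM in CIC KO (SD, n = 2 each). The log2 difference was 0.05 ± 0.13 (SE), with a 95% confidence interval from -0.29 to 0.40 and limma's adjusted p of 0.873. On that scale a knockout level from 81.8% to 132% of WT is inside the interval. The sign was set by CIC KO B: without that library the difference was -0.08, and without CIC KO A it was 0.19.

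The order of the levels was the same in all 4 libraries, with Cic highest, Atxn1l next and Atxn1 lowest, and the FPKM ranges of the members did not overlap within either group. On this per-length scale the Cic level was 8.80 and 8.90 times that of Atxn1l in WT A and B, and 3.36 and 3.15 times in CIC KO A and B. Against Atxn1 it was 10.7 and 11.7 times in WT and 4.30 and 6.97 times in CIC KO. In the knockout libraries, too, the Cic row had a higher FPKM than either partner. Atxn1 and Atxn1l summed to 10.6 and 11.1 FPKM in WT and to 10.1 and 10.3 FPKM in CIC KO. Cic was 4.82 and 5.06 times that sum in WT and 1.88 and 2.168 times in CIC KO. Both partner genes were modestly expressed, Atxn1 above 24.6% and Atxn1l above 29.6% of tested rows in WT.

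As a ratio within each library, Cic was lower against its partners in both knockout libraries, and the ratio of the partners overlapped between groups. These ratios are differences of log2(FPKM + 1) values, and the mean of the partners is taken on that scale. They are therefore smaller than the log2 of the plain FPKM ratios above. The log2 ratio of Cic to the mean of Atxn1 and Atxn1l was 3.05 and 3.14 in WT and 1.74 and 1.999 in CIC KO. The difference was -1.23, and the groups did not overlap. The exact permutation test (two-sided) gave p = 0.333, the smallest value that 2 libraries against 2 allow. The log2 ratio of Atxn1l to Atxn1 was 0.24 and 0.34 in WT, 0.30 in CIC KO A and 0.95 in CIC KO B. The ratio in CIC KO A thus lay between the WT values, and CIC KO B stood alone. The difference was 0.34, with p = 0.667 by the exact permutation test (two-sided), and without CIC KO B it was 0.01.

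**Figure D2:**
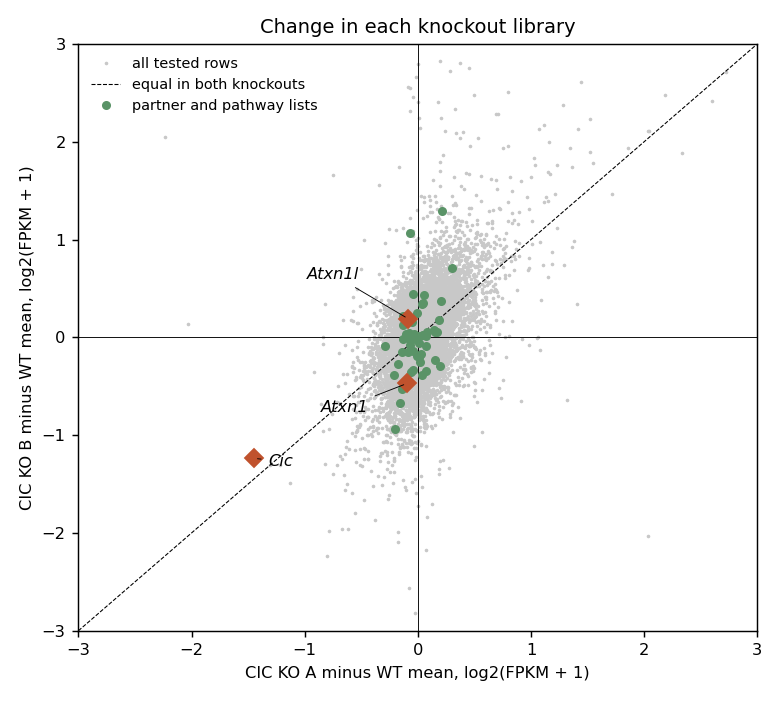
Difference from the WT mean on the log2(FPKM + 1) scale in CIC KO A (x axis) and CIC KO B (y axis); grey dots are tested rows, green dots the partner and pathway genes, orange diamonds the 3 members, and the dashed line marks equal differences. Cic lies far from the centre in both libraries (-1.45 and -1.24), while Atxn1 (-0.09 and -0.47) and Atxn1l (-0.08 and 0.19) lie among the other rows; 23 rows fall outside the axes.

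Genes next to Cic had small differences. Within 100 kb of the Cic row the table had 10 other rows, of which 8 passed the filter. Their median log2 difference was -0.03, against 0.02 over all tested rows, and they ranged from -0.13 to 0.31. Limma called 0 of them, and 1 had an unadjusted p under 0.05, against 0.0472% and 10.2% of all tested rows. The row of Pafah1b3, encoding a catalytic subunit of platelet-activating factor acetylhydrolase, lies 901 bases beyond the Cic row. It had 151 and 142 FPKM in WT and 147 and 122 FPKM in CIC KO, so the groups overlapped. Erf, an ETS-domain repressor on the other side of Cic, had 5.98 and 6.17 FPKM in WT and 5.82 and 5.42 FPKM in CIC KO, a small difference with both knockout values below WT (log2 difference -0.10 ± 0.09, SE). Gsk3a, a glycogen synthase kinase 3 gene, had 84.8 and 82.1 FPKM in WT and 82.9 and 76.1 FPKM in CIC KO. Tmem145 differed most, upward, at 38.0 and 40.9 FPKM in WT and 49.6 and 48.8 FPKM in CIC KO (log2 difference 0.31 ± 0.09, limma's adjusted p = 0.470). Dedd2, a death-effector-domain gene, had 7.61 and 7.49 FPKM in WT and 8.63 and 9.88 FPKM in CIC KO. Lipe and Zfp526 had log2 differences of -0.01 and -0.05, and Cnfn and Prr19 were below the filter.

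**Figure D3:**
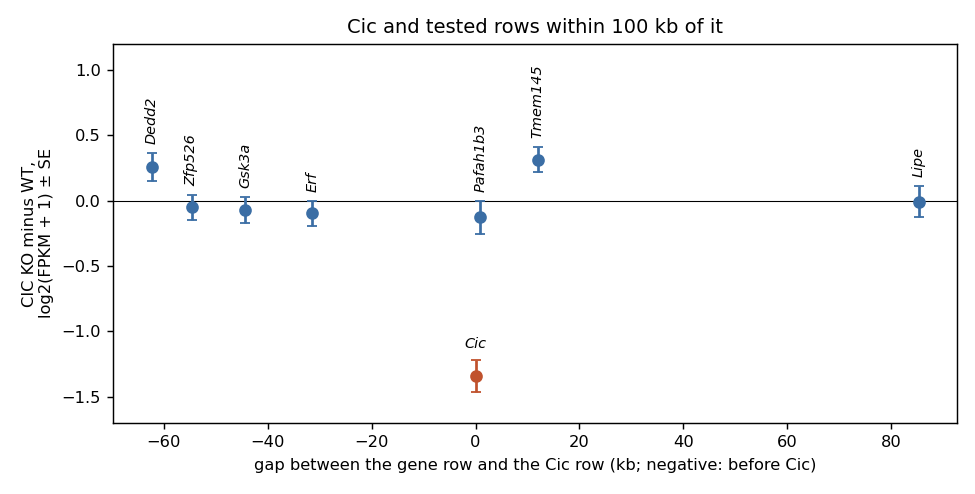
Log2(FPKM + 1) difference, CIC KO minus WT, with its SE from limma (y axis), for Cic and 7 of the 8 tested rows within 100 kb, by the gap in kb to the Cic row (x axis). Cic lies at -1.34 and the neighbours between -0.13 and 0.31.

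Differences were also small around the partner genes. The 1 row within 100 kb of Atxn1 was Gmpr, a guanosine monophosphate reductase gene, with 13.5 and 10.5 FPKM in WT and 12.1 and 12.5 FPKM in CIC KO. Near Atxn1l, 3 of 4 rows were tested. Zfp821 had 41.5 and 43.7 FPKM in WT and 43.9 and 42.5 FPKM in CIC KO. The adaptor-complex gene Ap1g1 had 29.9 and 29.7 FPKM in WT and 27.9 and 33.1 FPKM in CIC KO. Ist1, an ESCRT-related gene, had 50.9 and 53.6 FPKM in WT and 55.7 and 59.3 FPKM in CIC KO, with both knockout values above WT (log2 difference 0.13 ± 0.10, limma's adjusted p = 0.590). Pkd1l3 was below the filter, between 0.077 and 0.213 FPKM.

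The test called so few rows, and not Cic itself, that it says little about the wider CIC and ataxin-1 network. Of 50 tested rows in the 5 lists, limma called 0 in either direction, against 0.0472% of all tested rows. At an unadjusted p under 0.05 there were 3 (6%, against 10.2%). The groups did not overlap for 22 of the 50 (44%, against 48.9%). None of the 50 differed by as much as Cic, against 0.488% of all tested rows (Cic included).

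Proteins that bind or regulate ataxin-1 included the splicing factor gene Rbm17, which had 46.8 and 51.1 FPKM in WT and 49.0 and 49.5 FPKM in CIC KO. The groups overlapped. Of the 15 genes 14 were tested, 0 were called in either direction and 0 had an unadjusted p under 0.05, and the median log2 difference was -0.04. The largest differences were in the nuclear receptor gene Rora and in Anp32a, which encodes the leucine-rich acidic nuclear protein that binds ataxin-1. Rora had 1.62 and 1.85 FPKM in WT, 2.175 in CIC KO A and 5.70 in CIC KO B. Anp32a had 85.9 and 80.6 FPKM in WT, 72.2 in CIC KO A and 42.8 in CIC KO B. Both genes were most displaced in CIC KO B, the library with the highest thalamic, midbrain and cerebellar and the lowest cortical marker sums. Whether these values depend on those marker sums was not tested.

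The list of CIC kinases, 14-3-3 proteins, and import and turnover factors had 18 of 18 genes tested, 0 called in either direction and a median log2 difference of 0.01. At an unadjusted p under 0.05 there were 2 higher (Rps6ka1 and Dcaf7) and 1 lower (Kpna4), which were the 3 such rows of all 5 lists. Rps6ka1, encoding a p90 ribosomal S6 kinase, had 7.80 and 7.21 FPKM in WT and 8.80 and 10.03 FPKM in CIC KO, with both knockout values above WT (limma's adjusted p = 0.492). Ywhae, the most abundant of the 14-3-3 genes whose products bind phosphorylated CIC, had 515 and 490 FPKM in WT and 473 and 453 FPKM in CIC KO (log2 difference -0.12 ± 0.09). The largest differences were in Dcaf7 and Sfn. Dcaf7, whose Drosophila orthologue acts with the Minibrain kinase to lower Cic activity, had 78.5 and 78.1 FPKM in WT and 97.0 and 129 FPKM in CIC KO. Both knockout values were above WT, with a log2 difference of 0.51 ± 0.16 and limma's adjusted p of 0.470. Dyrk1a, the mouse counterpart of Minibrain, had 21.7 and 23.4 FPKM in WT and 22.4 and 27.0 FPKM in CIC KO, with overlapping groups. Sfn, a 14-3-3 gene mainly of epithelia, was low, at 1.09 and 1.31 FPKM in WT and 1.10 and 3.61 FPKM in CIC KO. Of the importin genes, Kpna4 had 35.1 and 33.3 FPKM in WT and 29.4 and 25.96 FPKM in CIC KO, and Kpna3 had 41.8 and 40.7 FPKM in WT and 37.4 and 37.2 FPKM in CIC KO. Both lay below WT in both knockout libraries, with log2 differences of -0.30 ± 0.11 and -0.14 ± 0.09. Pja1, encoding a ubiquitin ligase that degrades CIC in human glioblastoma cells, had 111 and 109 FPKM in WT and 122 and 114 FPKM in CIC KO.

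All 7 corepressor genes were tested, with 0 called in either direction, 0 at an unadjusted p under 0.05 and a median log2 difference of -0.05. Hdac2 and Hdac1, encoding histone deacetylases of the SIN3 complex, differed most. Hdac2 had 119 and 114 FPKM in WT, 106 in CIC KO A and 80.4 in CIC KO B, and Hdac1 had 19.1 and 17.8 FPKM in WT, 17.7 in CIC KO A and 14.2 in CIC KO B. Both genes were lowest in CIC KO B. Sin3a, the scaffold of that complex, had 13.2 and 14.9 FPKM in WT and 13.0 and 14.01 FPKM in CIC KO. The Groucho-related genes Tle1, Tle2, Tle3 and Tle4 had log2 differences between -0.19 (Tle4) and 0.18 (Tle1).

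Hbp1, an HMG-box gene that shares the AXH domain with ataxin-1, had 16.9 and 19.7 FPKM in WT and 19.3 and 18.9 FPKM in CIC KO. The other genes of the ataxin name, outside the ataxin-1 family, had 10 tested rows for 9 genes, with 0 called in either direction, 0 at an unadjusted p under 0.05 and a median log2 difference of -0.01. The largest differences were in 1 of the 2 rows of Atxn7l1 (5.75 and 5.62 FPKM in WT, 4.93 and 4.52 FPKM in CIC KO) and in Atxn7 (3.60 and 3.78 FPKM in WT, 3.57 and 5.38 FPKM in CIC KO). Atxn2, an RNA-binding protein gene, had 22.3 and 23.0 FPKM in WT and 23.3 and 28.9 FPKM in CIC KO. The other row of Atxn7l1 overlapped between groups.

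**Figure D4:**
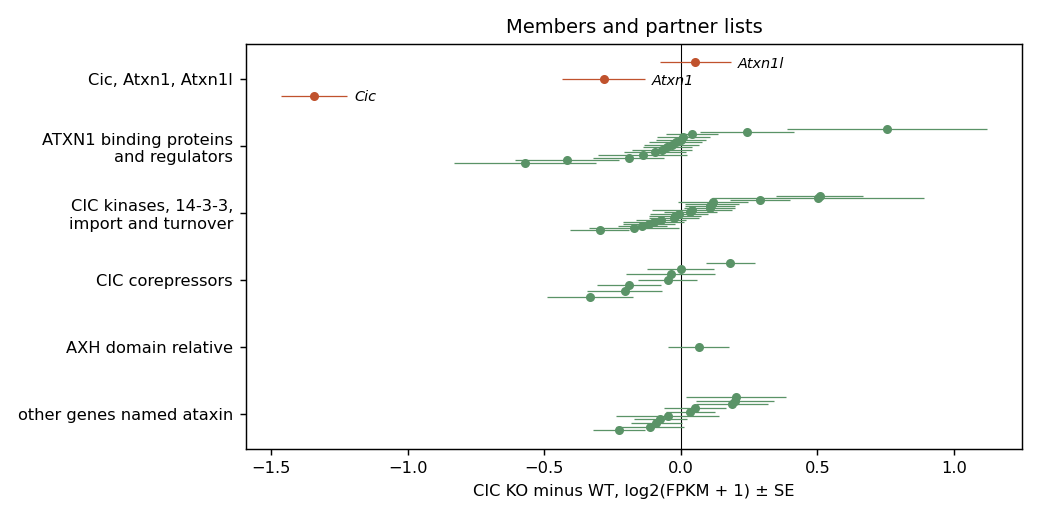
Log2(FPKM + 1) difference, CIC KO minus WT, with its SE from limma (x axis), for the 3 members (orange) and for each tested row of the 5 partner and pathway lists (green), ordered by size within a list. The list rows lie between -0.57 and 0.75, and Cic lies at -1.34.

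The rows with profiles most like each member were found by Euclidean distance over the 4 libraries, in log2(FPKM + 1) after removing each row's own mean. For Cic, 4 of the 5 nearest rows were Inhba, Dio2, Pla2g4b and Tiam2, at distances of 0.54 to 0.59. Inhba, encoding an activin subunit, had 4.35 and 3.82 FPKM in WT and 1.84 and 1.61 FPKM in CIC KO. Dio2, the deiodinase gene that activates thyroid hormone, had 4.05 and 4.03 FPKM in WT and 1.93 and 1.63 FPKM in CIC KO. Pla2g4b, a phospholipase gene, had 4.14 and 3.999 FPKM in WT and 1.80 and 2.173 FPKM in CIC KO, and Tiam2, an activator of the small GTPase Rac, had 33.9 and 30.9 FPKM in WT and 17.8 and 12.6 FPKM in CIC KO. These 4 were low in both knockout libraries, and of them Pla2g4b alone was, like Cic, lower in CIC KO A than in CIC KO B. For Atxn1 the nearest rows were Kcnk10, Dak and Lix1l, and for Atxn1l they were Med1, Smg1 and Tab2, at distances of 0.01 to 0.02. Kcnk10, a potassium channel gene, had 8.37 and 8.27 FPKM in WT and 7.71 and 5.72 FPKM in CIC KO. Med1, a Mediator subunit gene, had 14.1 and 15.2 FPKM in WT and 13.6 and 16.9 FPKM in CIC KO. With 4 libraries such likeness is a description of the values.

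**Figure D5:**
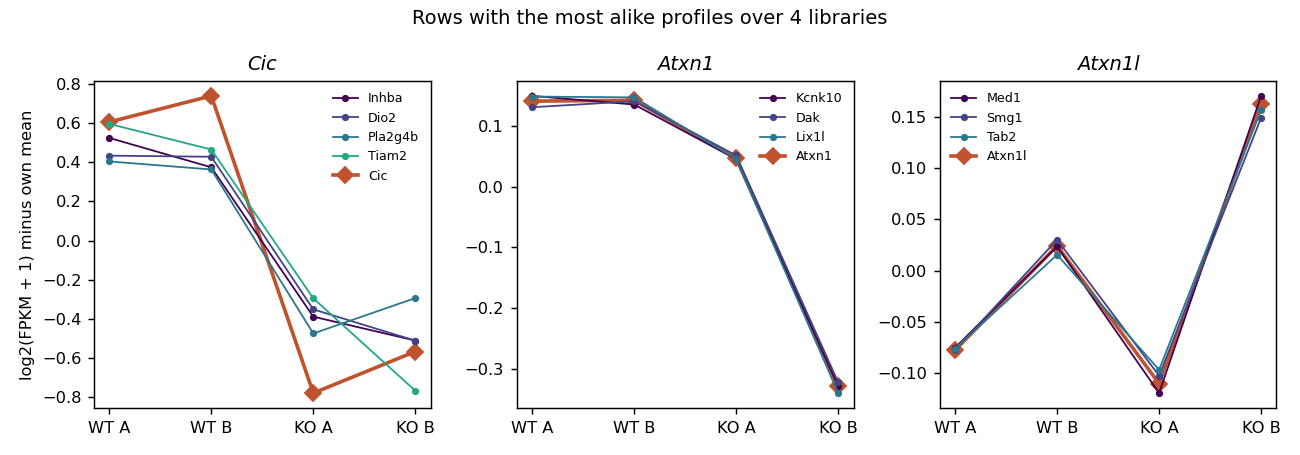
Log2(FPKM + 1) minus each row's own mean (y axis) in the 4 libraries (x axis) for each member (orange diamonds, a separate y scale per panel) and rows most like it (circles; 4 of the 5 nearest for Cic). Cic and these 4 rows are high in both WT and low in both knockout libraries, whereas the Atxn1 and Atxn1l panels follow CIC KO B.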

How the data were processed

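RNA was measured in brain at postnatal day 1 in 2 WT and 2 CIC KO libraries, grouped by the description field of the labels. That field says brain and names no region. The deposited FPKM values are 1 per gene row and library. Cufflinks 2.1.1, TopHat2 2.0.11, cutadapt and bcl2fastq 2.17 are listed with mm9 in the submitters' processing notes, without settings or annotation, and the unit was inferred from these tools and the values. The 12703 rows whose mean FPKM reached 1 were tested on the log2(FPKM + 1) scale in limma 3.58.1 under R 4.3.3 (lmFit and eBayes, two-sided, without trend, robust option or covariate). P-values were adjusted over all rows by Benjamini-Hochberg, with a threshold of 0.05. There were 2 residual and 2.63 prior degrees of freedom, so its errors rest largely on the spread shared across rows. Ratios within a library, on the log2(FPKM + 1) scale, were tested by exact permutation. The calculation was tested on simulated data. Deposited start coordinates were raised by 1 to count from 1. RefSeq and GENCODE M21 supplied GRCm38 spans and sequences, and no coordinate was converted between builds.

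The members and lists were chosen with earlier results of these data known. Named genes are the members, each pathway list's called members or else its 2 largest differences, all rows within 100 kb of a member, and the 5 (Cic) or 3 (partners) most alike rows. Some genes that this rule names are not reported here. Rbm17, Rps6ka1, Ywhae, Dyrk1a, Kpna3, Kpna4, Pja1, Sin3a, the Tle genes and Atxn2 were named for their roles after their values were seen. Alternatives covered the pseudocount, filter, scaling, variance model, listed zeros, the replicate block and leaving out each library.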

Additional observations from a re-analysis of the deposited data

How the results depend on the processing

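The Cic difference kept its sign and a log2 size of -1.45 to -1.20 in all 13 alternatives, and its adjusted p in limma ran from 0.00486 to 0.733. It passed the threshold only without CIC KO A (-1.24) or without CIC KO B (-1.45), where the spread comes from the WT pair alone. Leaving out single libraries gave -0.47 to -0.095 for Atxn1, called only without CIC KO A, and -0.083 to 0.19 for Atxn1l, which reversed to -0.083 without CIC KO B. Atxn1 had no value with a mean FPKM of 5 or more, since its row was then left out. Of the counts over all rows, 3 rows were called higher and 3 lower. With a pseudocount of 0.1 or with no filter 1 was higher, and with rows holding a listed 0 left out 0 were higher and 0 lower. Leaving out single libraries gave 1 to 2269 higher and 3 to 2036 lower; the cause was not tested. With the replicate block the Cic difference was -1.34 (adjusted p = 0.0973) and no member's call changed; 4 rows were higher and 3 lower. The correlation over rows of A minus B, WT with CIC KO, was -0.01. It rests on 2 pairs that include CIC KO B, which stood apart, so it cannot exclude a shared litter or batch by letter. The letters were not taken as pairs in the main fit. With 2 libraries a group and no counts, a change of Atxn1 or Atxn1l inside the intervals given could not be resolved.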
